A study of Homo sapiens with 6 samples.

Results

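The reads analysed here fall within 6 human genes, FMR1, FXR1, FXR2, CAPRIN1, G3BP1 and G3BP2, which encode the fragile X protein family and proteins that build stress granules. The genes were chosen by name from 20163 protein-coding genes, and their reads were taken as every site on the gene's own strand whose middle lies in its annotated span. Across 6 PAR-CLIP libraries this gave 5331 of 10639684 sites. PAR-CLIP feeds cells 4-thiouridine (4SU), a uridine analog that crosslinks to bound protein under 365 nm light and is then read as C in place of T. A site is a stretch of overlapping reads reported by the PARalyzer program, and a conversion event is a T read as C.

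All libraries came from HEK293, an established human embryonic kidney cell line, and all were made from cells grown with 4SU, irradiated at 365 nm, and treated with RNase T1, an enzyme that cuts after G. Background consisted of 3 libraries of FLAG-tagged green fluorescent protein (GFP), a protein not known to bind RNA, which was expressed from an inducible stable line and purified with the FLAG M2 antibody. They were cut from the gel at about 20, 35 and 45 kDa and are called G20, G35 and G45. These slices are separate parts of the size range and not repeats of each other. HuR, also tagged with FLAG and purified in the same way, had 2 replicates. Total was a single library without immunoprecipitation, digested with proteinase K and depleted of ribosomal RNA. Nothing in the labels says that the HuR replicates or the slices came from separate cultures, so the p-values measure only the spread between these libraries.

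FMRP, the product of FMR1, binds mRNA on ribosomes and restrains translation, and its loss causes fragile X syndrome. FXR1 and FXR2 encode its autosomal paralogs. G3BP1 and G3BP2 encode the related proteins whose condensation with RNA forms stress granules, and CAPRIN1 encodes their direct partner. HuR, encoded by ELAVL1, is a nuclear and cytoplasmic protein that binds U-rich and AU-rich stretches of introns and 3'UTRs and is known for stabilising mRNAs.

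The libraries held 6187300 to 38644636 reads at sites. Within the 6 genes lay 953 G20 reads, 772 G35 reads and 468 G45 reads. They held 2636 reads in HuR replicate 1, 27349 in HuR replicate 2 and 9886 in Total. The 3-read floor was 0.0776 to 0.485 RPM (reads per 1000000 site reads of the library). HuR replicate 1 was shallow, and 819 of its 1314 sites in these genes had 1 read, compared to 150 of 2098 in replicate 2. Without molecular identifiers in the reads, the intervals and floors given here cover counting error alone. Of the cell line's marker genes, Total held 2351 exon reads of VIM, 134 of KRT8, 47 of KRT18 and 4 of NEFM. The blood marker PTPRC had 3 reads and the liver marker ALB had 41. ELAVL1, whose product was purified, had 61 and 473 coding reads in the HuR libraries, 81 to 223 in the slices and 852 in Total.

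The sequences below show what was read. For each gene except G3BP1, which has the first alone, the first is from the merged site with the highest lower RPM of both HuR replicates among those without a background read, and the second is from the merged site with the highest summed RPM of the slices. They were chosen by these reads and are a description. Each is the middle, at most 30 bases, of the most deeply read site in that interval, in the sense of the RNA with T for U, and the capitals mark runs of 3 or more T. Each printed stretch occurred once in the GRCh37 chromosomes.
FMR1 3'UTR, HuR without background: aaaactacttagcacttcagggcagaTTTT
FMR1 3'UTR, background: TTTccataTTTTTTTccttacataaacatc
FXR1 intron, HuR without background: tagcgttcTTTTctccttaTTTTcccgaaa
FXR1 non-coding exon, background: caatacttcTTTTcTTTTTTTg
FXR2 intron, HuR without background: TTTgtcagaaTTTactcTTTTTTTccg
FXR2 intron, background: ttgggattacagggaaaag
CAPRIN1 intron, HuR without background: TTTTggttagatatacaaactctaccccat
CAPRIN1 coding, background: cgtccggaccgcca
G3BP1 3'UTR, HuR without background: atcacaaaacaattctaaaacctaactg
G3BP2 intron, HuR without background: TTTTccctacaTTTTgcattaaacttcatt
G3BP2 3'UTR, background: acatcTTTTaTTTTTacatg

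A run of 3 or more T was present in 5 of the 6 HuR stretches and in 3 of the 5 background stretches, so such runs were read in both. T made up 21.4 to 55.6% of the HuR stretches and 7.14 to 63.6% of the background stretches. The lowest share of T belonged to the CAPRIN1 coding stretch, whose 14 bases hold 1 T.

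In hg19 (GRCh37), FMR1 spans chrX:146993437-147032645 on the plus strand, and its HuR stretch lies at chrX:147030584-147030613. Its background stretch lies nearby at chrX:147031043-147031072. FXR1 spans chr3:180585929-180700541 on the plus strand, with the stretches at chr3:180631480-180631509 and chr3:180671756-180671777. FXR2 spans chr17:7494548-7518215 on the minus strand, with the stretches at chr17:7514607-7514633 and chr17:7513081-7513099. CAPRIN1 spans chr11:34073278-34124157 on the plus strand, with the stretches at chr11:34090406-34090435 and chr11:34074008-34074021. G3BP1 spans chr5:151150606-151192472 on the plus strand, with the HuR stretch at chr5:151184240-151184267. G3BP2 spans chr4:76567033-76649773 on the minus strand, with the stretches at chr4:76578456-76578485 and chr4:76569144-76569163.

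The 6 mRNAs were compared in Total by reads per kilobase of coding sequence (RPKM, RPM divided by the length in kilobases). G3BP1, at 20.3 RPKM, and CAPRIN1, at 17.0 RPKM, were the highest. FXR1 followed at 6.64 RPKM, then FMR1 at 4.04, FXR2 at 3.73 and G3BP2 at 3.25. Per kilobase of 3'UTR the order in Total was different. FXR2 had 6.08 RPKM, CAPRIN1 5.19, G3BP1 3.81, G3BP2 2.88, FMR1 1.45 and FXR1 0.774. The order of abundance thus depended on the region read. Total is a single library, so neither order has a spread to be read against.

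The first question was where in each gene the reads of HuR and of background lay. Reads were assigned to coding sequence, 3'UTR, 5'UTR, other exon (exons of non-coding transcripts) or intron by the middle of their site, in that order of priority. Over the 6 genes together, coding sequence held 10.3% and 1.93% of the reads in the HuR replicates, compared to 50.6%, 49.0% and 32.1% in the slices G20, G35 and G45. Introns held 59.9% and 61.4% in the HuR replicates and 20.4%, 28.5% and 35.0% in G20, G35 and G45. Both HuR libraries thus lay outside the range of the slices for coding and for intron reads. The difference of the means was -37.8 percentage points for coding and 32.7 for intron reads, each with p = 0.2 in a two-sided exact permutation test, the smallest p that 2 libraries against 3 can give. For the 3'UTR share of all reads the groups overlapped, with 23.1% and 30.5% in HuR and 12.6%, 15.3% and 24.6% in the slices (exact permutation p = 0.4). When each site counted once, the mean 3'UTR share turned from higher to lower in HuR, at 17.25% compared to 23.2% in the slices. Total stood at 39.8% coding, 29.8% 3'UTR and 25.8% intron reads.

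The shares over the 6 genes together rested in part on a single CAPRIN1 interval at the start of its coding sequence, described below, which alone held 315 of the 772 G35 reads. Without it, an alternative chosen after seeing the data, the coding share was 3.55% and 1.84% for HuR and 48.2%, 13.8% and 17.7% for G20, G35 and G45. Introns then held 64.4% and 61.5% in HuR and 21.4%, 48.1% and 42.7% in the slices, so HuR remained outside their range for both regions. The difference of the means became -23.9 percentage points for coding and 25.5 for intron reads (exact permutation p = 0.2 each).

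**Figure D1:**
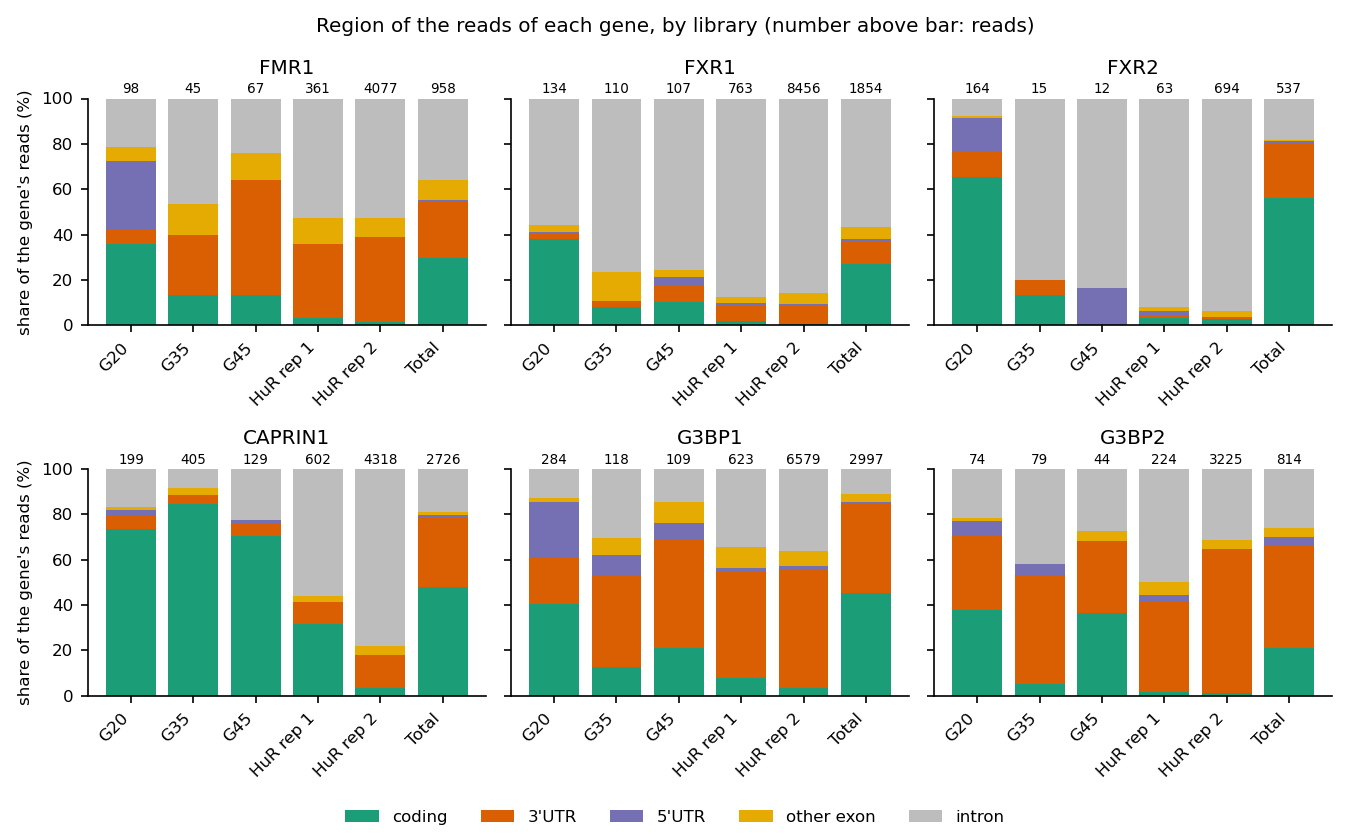
Share of each gene's reads (%) by region, in 1 bar per library, with the number of reads above the bar. In CAPRIN1 the coding share is 73.4%, 84.4% and 70.5% in G20, G35 and G45 and 31.7% and 3.27% in HuR replicates 1 and 2, and in FXR2 intron reads are 92.1% and 93.5% of the HuR reads.

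Within exons, the share of 3'UTR reads among coding and 3'UTR reads of the same gene does not depend on how libraries are scaled to each other. FMR1 had 91.5% in HuR replicate 1 and 96.0% in replicate 2, compared to 14.6%, 66.7% and 79.1% in G20, G35 and G45. FXR1 had 80.6% and 94.5% in HuR, compared to 5.56%, 25.0% and 42.1% in G20, G35 and G45. In these genes the HuR libraries thus lay above every slice. FXR2, the other fragile X family gene, had 33.3% and 25.0% in HuR, compared to 14.4% in G20 and 33.3% in G35, so its HuR values did not lie above the slices.

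G3BP1 had 85.2% and 93.7% in HuR, compared to 33.1%, 76.2% and 69.3% in these slices. G3BP2 had 95.7% and 98.4% in HuR, compared to 46.2%, 90.5% and 46.7%, so its G35 value lay close to HuR replicate 1, and their 95% Wilson intervals of 77.9 to 96.2% and 89.6 to 98.3% overlapped. CAPRIN1 had 23.3% in HuR replicate 1 but 81.3% in replicate 2, compared to 4.47 to 7.59% in the slices. The FXR2 shares rest on few reads, since its 3'UTR has 600 bases and it had only 3 coding and 3'UTR reads in HuR replicate 1, 24 in replicate 2, 3 in G35 and none in G45.

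Of the 6 genes, 5 had at least 10 coding and 3'UTR reads in each HuR and background library, and FXR2 did not. In all 5, both HuR values lay above all 3 slices. The same held for 62.3% of the 2285 genes that passed this minimum, so the pattern was that of most well-read genes, and the reverse was seen in 0.569% of them. The median share over these genes was 88.0% and 92.5% in HuR, 30.8 to 54.5% in the slices and 50% in Total. Against this median, CAPRIN1 in HuR replicate 1 was far lower.

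**Figure D2:**
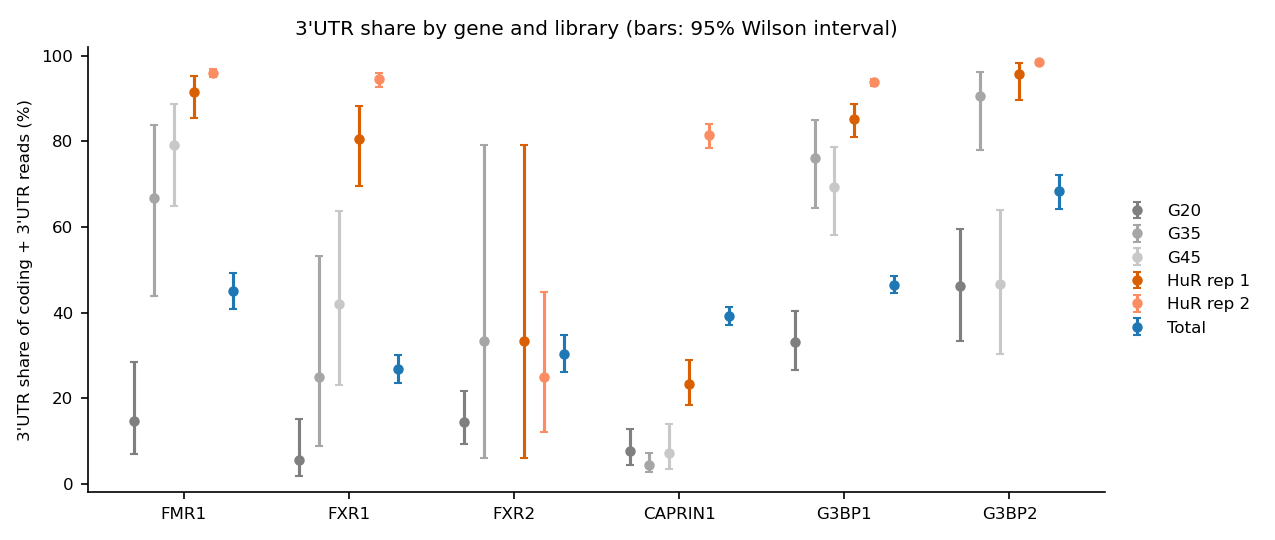
Share of 3'UTR reads among coding and 3'UTR reads (%) for each gene and library, with 95% Wilson intervals. HuR lies above all slices in FMR1, FXR1, CAPRIN1, G3BP1 and G3BP2, CAPRIN1 differs between the HuR replicates (23.3% and 81.3%), and the FXR2 values rest on few reads.

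Set against Total, the ratio of 3'UTR to coding reads (with 0.5 added to each count) was 12.6 and 29.0 times higher in the HuR replicates for FMR1. It was 11.1 and 46.6 times higher for FXR1, 6.60 and 17.2 times for G3BP1 and 9.34 and 28.2 times for G3BP2. CAPRIN1 went below Total in replicate 1, at 0.475 times, and above it in replicate 2, at 6.76 times. Both replicates were at least 2-fold above Total in 4 of the 5 genes with enough reads, compared to 69.1% of 6042 genes. Total has no replicate, so these ratios were not tested.

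In G35, G45 and HuR replicate 1, most CAPRIN1 coding reads came from a single interval around the start of the coding sequence, chr11:34073896-34074059. It held 46 G20 reads, 315 G35 reads and 84 G45 reads. HuR replicate 1 held 184 reads there, replicate 2 held 32 and Total held 196. In the other libraries most coding reads lay elsewhere, with 101 of 146 in G20, 115 of 141 in HuR replicate 2 and 1119 of 1310 in Total outside the interval. This interval was read in all 6 libraries, and its reads were nearly free of conversions, with 0 events in G35 and G45, 1 in G20, 2 in HuR replicate 1, 6 in replicate 2 and 3 in Total. The printed 14-base CAPRIN1 stretch is the whole G35 site and offers 1 T to convert.

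Without this interval, the 3'UTR share of CAPRIN1 rose to 89.2% in HuR replicate 1, next to 84.3% in replicate 2. In the slices it became 10.6% (G20), 37.2% (G35) and 43.8% (G45), and HuR remained above all of them. The difference between the HuR replicates in CAPRIN1 thus lay in this interval.

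**Figure D3:**
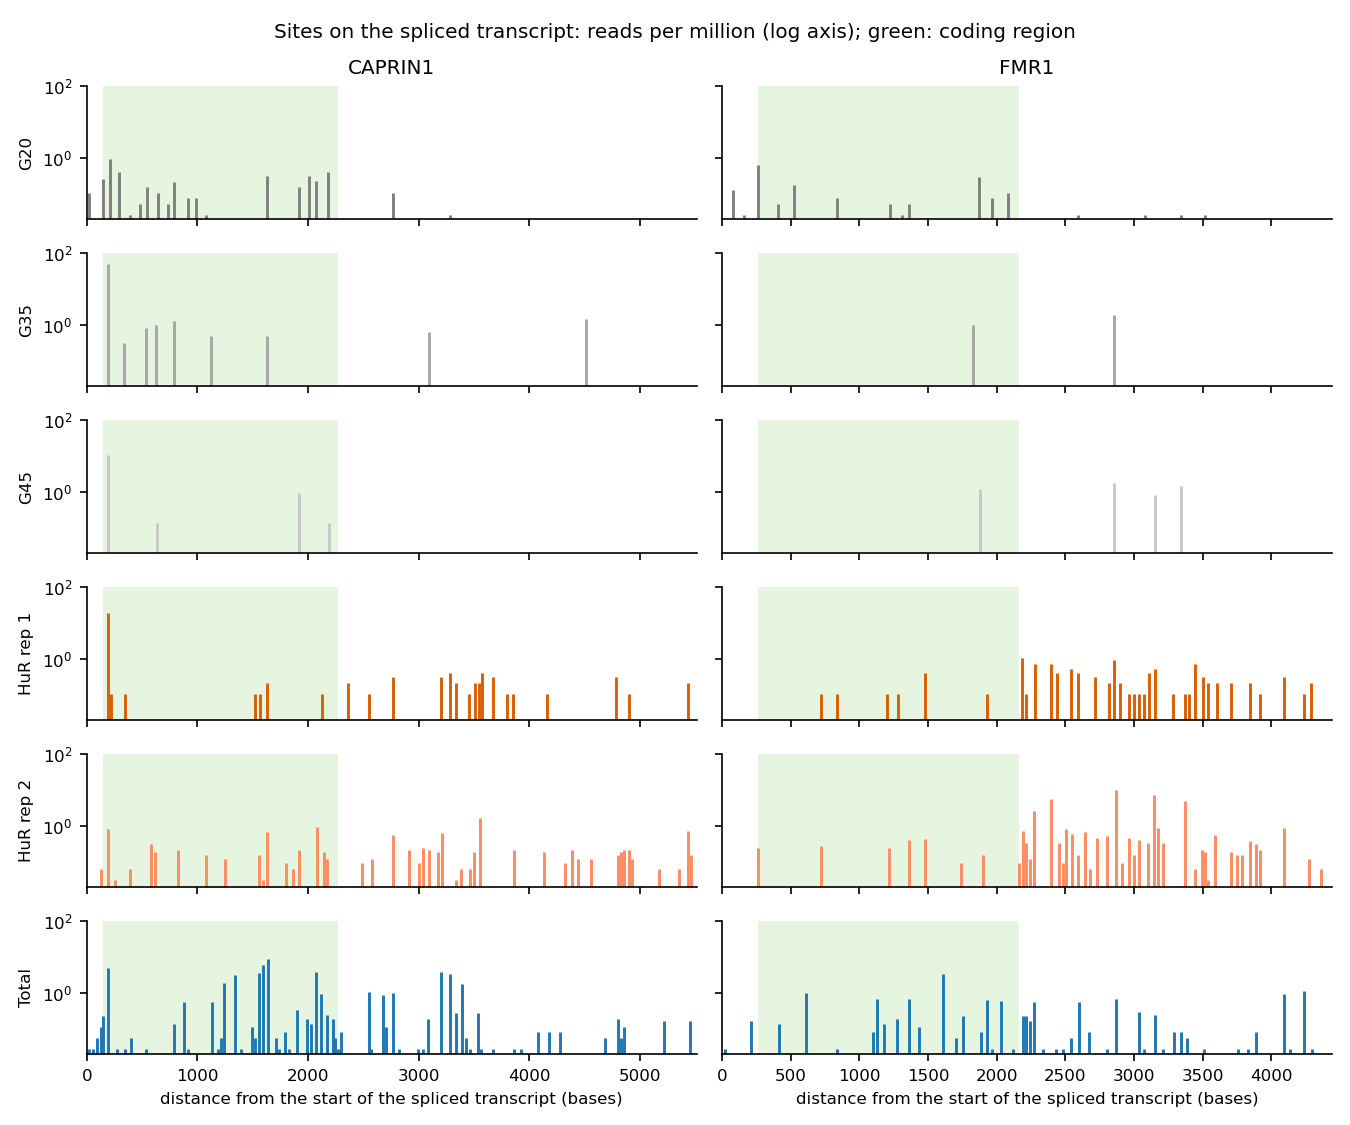
RPM (log axis) of each site along the spliced canonical transcripts of CAPRIN1 and FMR1, by distance in bases from the transcript's start, with the coding region in green. In CAPRIN1 the site near the start of the coding region stands out in G35, G45 and HuR replicate 1, and in FMR1 the HuR sites lie mostly beyond the coding region.

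Per kilobase, the 3'UTRs of 3 genes were read more densely by HuR than those of the others. G3BP1 reached 3.51 and 12.4 RPKM in the HuR replicates, FMR1 2.76 and 10.6 RPKM, and G3BP2 2.64 and 17.7 RPKM. The order of these genes changed between the replicates. CAPRIN1 (1.35 and 4.24 RPKM), FXR1 (0.857 and 3.397 RPKM) and FXR2 (0.175 and 0.311 RPKM) followed in the same order in both. G3BP2 thus had the densest 3'UTR in HuR replicate 2. In Total it was the lowest of the 6 genes by coding density, but not by 3'UTR density, at 2.88 RPKM. In HuR replicate 1, CAPRIN1 coding sequence, which holds the interval above, was denser than any of these 3'UTRs, at 9.33 RPKM. In that library G3BP1 coding sequence reached 2.82 RPKM. Coding bases here are those of any coding transcript, 1865 in G3BP1 compared to 1401 in its canonical transcript. The same holds for 3'UTR bases, 4491 in FMR1 compared to 2281 in its canonical transcript, but 8637 and 8694 in G3BP1. The densities of these genes thus depend on the transcripts used.

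Intron density was lower than 3'UTR density in these genes except FXR2. FMR1 introns had 0.693 and 2.30 RPKM in HuR, FXR1 introns 0.682 and 2.20, CAPRIN1 introns 0.847 and 2.51, and G3BP1 introns 1.03 and 3.39. FXR2 introns had 0.315 and 1.05 RPKM, above its 3'UTR in both replicates. G3BP2 introns were the lowest, at 0.171 and 0.457 RPKM. FMR1 contains the non-coding gene FMR1-IT1 and G3BP2 a Y RNA gene on the same strand, whose reads cannot be told apart from those of the host intron.

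The second question was whether HuR reads exceeded background reads for a gene and region. edgeR's quasi-likelihood test with TMM scaling, fitted on 23669 gene regions, called 0 of them at an adjusted p under 0.05 (0.00%), although 6689 had an unadjusted p under 0.05. The same test, without Total, was run on simulated counts of these 23669 regions. It called 23 of 99 regions changed 8-fold and 96 of 99 changed 64-fold, so most simulated differences of 8-fold were missed. The changed regions were drawn from the more deeply read regions alone, so recovery among less read regions was not measured. The fitted log2 ratio of the simulated changed regions was off by a median of 0.70. DESeq2 called 5267 of the same regions, 5.89% of all as higher and 16.4% as lower in HuR. Of the 30 member regions, 21 had enough reads for the test, and none was called by edgeR, with adjusted p from 0.0834 to 0.961. Among the 15 of them in coding sequence, 3'UTRs and introns, DESeq2 called 4 higher and 1 lower. The values below are therefore fitted ratios with their standard errors, and not calls.

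In the 3'UTR, FXR2 had too few reads to be tested. In the other 5 genes the fitted log2 ratio of HuR over background was above 0, compared to a median of 0.52 over the 5216 3'UTRs. It was 2.27 ± 0.89 (SE) in FXR1, 1.44 ± 0.86 in FMR1, 1.13 ± 0.49 in G3BP1, 1.11 ± 0.74 in G3BP2 and 0.87 ± 0.66 in CAPRIN1. The unadjusted edgeR p was under 0.05 in FXR1 alone (adjusted p = 0.148), which is 1 of 5, compared to 8.47% of all 3'UTRs. With each site counted once, the G3BP1 and G3BP2 ratios fell below 0, to -0.23 and -0.82, while the median of all 3'UTRs fell to -0.62. The sizes depended on the HuR replicate. Without HuR replicate 1 they were 3.80 in FXR1, 2.92 in FMR1, 2.62 in G3BP1, 2.87 in G3BP2 and 2.29 in CAPRIN1, while the median of all 3'UTRs rose to 1.68. Without HuR replicate 2 they were 2.05, 1.24, 1.03, 0.36 and 0.86 in the same order, with a median of 0.36.

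FXR1 shows the counts behind this value. Its 3'UTR held 3, 3 and 8 reads in G20, G35 and G45, compared to 54 and 722 in the HuR replicates and 184 in Total. In RPM these were 0.0776, 0.485 and 1.06 in the slices, the first at the floor of 3 reads, and 5.67 and 22.5 in HuR. The groups did not overlap on this scale.

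FMR1 held 6, 12 and 34 3'UTR reads in G20, G35 and G45 and 118 and 1528 in HuR, or 0.155, 1.94 and 4.51 RPM against 12.4 and 47.6 RPM. The HuR values were again the higher ones, but on the TMM scale they nearly touched, at 14.9 and 25.0 TMM-normalised RPM in HuR and 14.7 in G45. G3BP1 held 57, 48 and 52 3'UTR reads in the slices and 289 and 3435 in HuR, and G3BP2 held 24, 38 and 14 in the slices and 90 and 2037 in HuR. CAPRIN1 held 12, 16 and 7 3'UTR reads in the slices and 58 and 615 in HuR. The untested FXR2 3'UTR showed no clear direction, with 18, 1 and 0 reads in G20, G35 and G45 and 1 and 6 in HuR. Its mean was 0.112 TMM-normalised RPM in HuR and 2.22 in the slices, but the slice mean rested on G20. On this scale G20, G35 and G45 had 6.22, 0.443 and 0, and HuR had 0.126 and 0.0982, so the groups overlapped.

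In the introns, the ratio was above 0 in all 6 genes, from 0.86 ± 0.72 in G3BP2 and 0.93 ± 0.74 in FXR2 to 1.91 ± 0.51 in CAPRIN1 and 1.92 ± 0.57 in FMR1, with a median of 0.26 over 12372 introns. FXR1 (1.63 ± 0.50) and G3BP1 (1.48 ± 0.60) lay between. The unadjusted edgeR p was under 0.05 for CAPRIN1, FMR1, FXR1 and G3BP1, or 4 of 6, compared to 13.3% of all introns, and the lowest adjusted p was 0.0834, for CAPRIN1. Its introns held 33, 34 and 29 reads in G20, G35 and G45 and 337 and 3366 in HuR. Without HuR replicate 1 the intron ratios ran from 2.15 in G3BP2 to 3.37 in FMR1, and without HuR replicate 2 from 0.88 in FXR2 to 1.95 in CAPRIN1.

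In coding sequence, the ratio was below 0 in all 4 genes tested, at -2.97 ± 1.03 in FXR1, -2.62 ± 1.11 in CAPRIN1, -2.37 ± 1.01 in FMR1 and -1.91 ± 0.90 in G3BP1. The unadjusted edgeR p was under 0.05 in 3 of 4, near the 72.7% of all coding regions, whose median ratio was -4.003. With canonical transcripts alone the G3BP1 ratio was -4.37, the lowest of these genes. Those of FXR1 (-3.21), CAPRIN1 (-2.615) and FMR1 (-2.50) stayed closer to their values above. Scaled to library totals, which raised all ratios, the ratio turned positive in FMR1 (0.64) and G3BP1 (1.14) and stayed negative in FXR1 (-0.08) and CAPRIN1 (-0.96). Without HuR replicate 1 the CAPRIN1 ratio was -3.95 and those of FMR1 and G3BP1 were -1.26 and -0.99, and without HuR replicate 2 the CAPRIN1 ratio was -1.52. FXR2 and G3BP2 coding reads were too few to be tested. FXR2 had 107 coding reads in G20, where HuR replicates had 2 and 18, and 2 and 0 in G35 and G45.

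**Figure D4:**
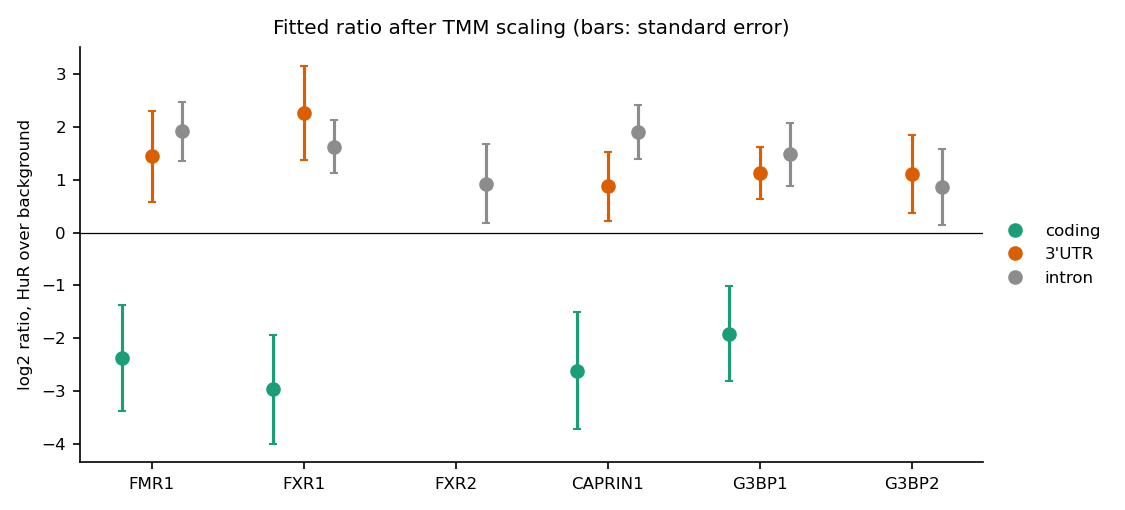
Fitted log2 ratio of HuR over background after TMM scaling, with its standard error, for coding, 3'UTR and intron reads of each gene. All 3'UTR and intron ratios tested lie above 0 and all coding ratios tested lie below 0, and no ratio was called by edgeR. FXR2 coding and 3'UTR reads and G3BP2 coding reads were too few to be tested. The FMR1 and G3BP1 coding ratios turn positive under scaling to library totals. The G3BP1 and G3BP2 3'UTR ratios turn negative when each site is counted once, as does the median of all 3'UTRs.

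The scaling carries much of these ratios. The TMM factors ranged from 0.139 in G20 to 2.65 in HuR replicate 2, and scaling to library totals instead moved the median ratio of all regions up by 2.56 on the log2 scale. Under library totals 11 of the 15 member regions were called higher and 0 lower, compared to 38.5% and 0.511% of all regions. Counting each site once called 5 higher and 2 lower of 12 tested, compared to 26.5% and 25.9%. Without a filter on low counts 7 of 15 were called higher and 0 lower, compared to 5.37% and 1.86%, and without HuR replicate 1 these were 5 and 1, compared to 3.63% and 1.47%. The 15 member regions are the coding, 3'UTR and intron regions that passed the main filter. The percentages instead cover regions of every kind that a setting tested. These were 71293 without a filter and 40158 without HuR replicate 1, compared to 23669 in the main fit. Member counts and percentages thus come from unlike sets, and whether members were called more often than similar regions was not tested. Relative to the shifted median of library totals, the 3'UTR ratios of the 5 genes stayed above it and those of coding sequence stayed below it.

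Conversion events per read need no scaling between libraries. Over the 6 genes, HuR had 89.8 and 106 conversion events per 100 reads, compared to 25.5, 46.6 and 41.2 in G20, G35 and G45 and 21.7 in Total. A read can hold more than 1 event. The HuR mean was 98.0 ± 11.7 (SD, n = 2) and the background mean 37.8 ± 10.98 (SD, n = 3), without overlap, and the difference of 60.2 had p = 0.2 in the two-sided exact permutation test. Without the CAPRIN1 interval the slices had 26.7, 78.8 and 50.3 events per 100 reads and HuR 96.4 and 106, so G35 moved closer to HuR. The same groups did not overlap over the sites of all protein-coding genes, with 61.95 and 97.3 in HuR and 9.30, 54.6 and 47.25 in the slices. Over all sites of the libraries they did overlap, since HuR replicate 1 had 48.65, compared to 61.7 in G35 and 56.25 in G45. At least 1 conversion was present at 91.4% and 91.2% of HuR sites, at 38.8 to 65.0% of sites in the slices and at 44.9% in Total.

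By gene, HuR replicate 2 ranged from 100.9 events per 100 reads in FXR2 to 111 in FMR1. HuR replicate 1 ranged from 69.6 in CAPRIN1 to 98.2 in G3BP1. In G35, FXR1 (81.8), FXR2 (93.3, from 15 reads) and G3BP1 (89.8) came close to HuR, whereas CAPRIN1 (22.0) did not. Without the CAPRIN1 coding interval described above, CAPRIN1 rose to 99.8 events per 100 reads in HuR replicate 1 and to 98.9 in G35. It rose to 73.3 in G45 but only to 19.6 in G20. Thus each value of CAPRIN1 that stood apart from the other genes in G35 and HuR replicate 1 rested on this interval.

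**Figure D5:**
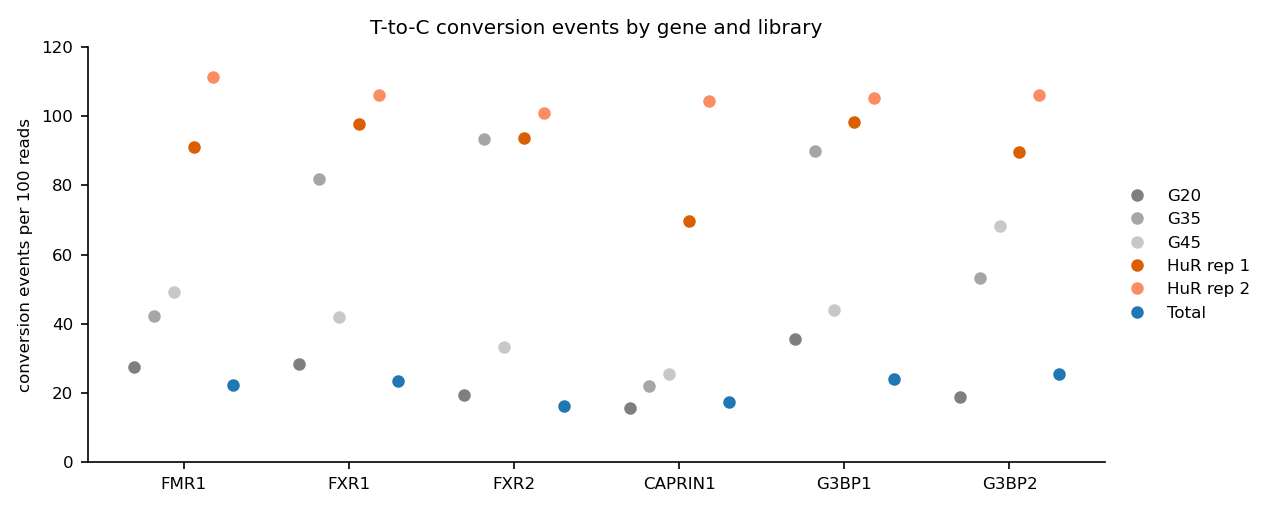
Conversion events per 100 reads for each gene, 1 point per library. Both HuR replicates lie above all slices in every gene, from 69.6 to 111, Total lies between 16.4 and 25.4, and G35 comes near HuR in FXR1, FXR2 and G3BP1.

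The third question was how far HuR sites coincided with background. Of the HuR reads in the 6 genes, 27.4% in replicate 1 and 33.9% in replicate 2 came from sites that shared at least 1 base on the same strand with a background site. By sites these were 187 of 1314 (14.2%) and 261 of 2098 (12.4%). The overlapping sites were thus deeper than the others. Over all protein-coding genes the overlap was 50.25% and 24.7% of HuR reads and 9.11% and 8.46% of HuR sites, so the read share of the 6 genes lay below that of all genes in replicate 1 and above it in replicate 2. In Total, 40.7% of the reads and 16.5% of the sites overlapped background.

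Overlap differed between the genes. In replicate 2, G3BP2 had 54.7% of its HuR reads at such sites, G3BP1 48.4%, FMR1 28.0%, FXR1 26.7%, CAPRIN1 20.1% and FXR2 6.48%. In replicate 1, CAPRIN1 was the highest at 40.5%, followed by G3BP2 at 34.8% and G3BP1 at 33.2%. By region, 90.0% and 69.9% of coding HuR reads, 40.0% and 56.9% of 3'UTR reads and 12.7% and 21.8% of intron reads overlapped background. For all genes these shares were 86.1% and 62.0% of coding, 49.7% and 49.55% of 3'UTR and 46.4% and 19.65% of intron reads. Overlapping HuR sites in replicate 2 carried 109 conversion events per 100 reads and the others 105, so conversions did not set them apart. In replicate 1 they carried 73.0 and 96.1, and the CAPRIN1 values were 23.4 and 101.1.

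Merging the sites of all libraries gave 3108 intervals, of which 779 were read in both HuR replicates. Of these, 628 (80.6%) held no background read, compared to 84.8% of 604938 such intervals in all protein-coding genes. Of the 628, 456 lay in introns, 112 in 3'UTRs and 7 in coding sequence. G3BP1 had the most such 3'UTR intervals, 40, ahead of FXR1 with 25 and FMR1 with 21, and FXR2 had none. These counts were not scaled to 3'UTR length, which was 8637, 6618, 4491 and 600 bases in the same order. Background was scattered, and only 11 of the 411 intervals with a background read were read in all 3 slices (2.68%, compared to 2.83% in all genes), 5 of them in G3BP1 and 2 each in CAPRIN1 and FXR1. Of these 411, 138 held no HuR read.

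The FMR1 3'UTR interval with the most background reads, chrX:147030991-147031126, was also a HuR interval. It held 12 reads in G35 and 13 in G45, 13 and 352 in the HuR replicates and 26 in Total. Although its printed stretch is 50% T, the slices showed 0 conversion events there, whereas HuR showed 12 and 434 events. G3BP2 showed the same at chr4:76569144-76569180, where G20 and G35 held 1 and 7 reads without an event and HuR held 4 and 35 reads with 3 and 26 events.

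Other background intervals were converted. The FXR1 interval at chr3:180671742-180671778 was read in all 6 libraries, with 14 reads and 8 events in G35 and 183 reads and 183 events in HuR replicate 2. The FXR2 intron interval at chr17:7513081-7513099 was read in G35 only, with 7 reads and 7 events.

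The intervals without background were chosen for having no slice read, so the absence of slice reads there is not a result. The slices were also thinly read in these genes. The FXR2 value in HuR replicate 1, 0.420 RPM, is below the 3-read floor of G35, 0.485 RPM. In FMR1, chrX:147030556-147030673 held 11 and 190 HuR reads with 10 and 188 events, and 1 read in Total. The FXR1 intron interval chr3:180631477-180631513 held 12 and 74 HuR reads and none in Total, and the FXR2 intron interval chr17:7514607-7514633 held 4 and 69. The G3BP1 3'UTR interval chr5:151184240-151184310, whose printed stretch has no run of 3 T, held 12 and 51 HuR reads with 12 and 48 events, and 58 reads with 9 events in Total. HuR reads there were thus converted nearly once each, and those of Total rarely.

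HuR sites of these genes had nearly the base composition of HuR sites in other genes, and 3'UTR sites of the slices held more T than elsewhere. In the 3'UTR, T made up 37.8% and 37.7% of the HuR site bases of the 6 genes, compared to 36.2% and 36.95% for 3'UTR sites of all protein-coding genes. In the slices these shares were 32.2%, 39.3% and 42.8% for the 6 genes in G20, G35 and G45, compared to 24.4%, 33.3% and 35.7% for all genes. Coding sites had less T, with 18.3 to 19.8% in the slices and 28.0% and 26.8% in HuR. The annotated 3'UTRs themselves are 34.1 to 36.0% T except that of FXR2, at 22.5%, and the coding regions 18.7 to 26.1%.

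The motif TTTNTTT, searched on the site's own strand with overlaps counted, was present 9.19 and 11.1 times per 1000 bases of HuR 3'UTR sites in the 6 genes. All genes had 5.97 and 9.90. In the 3'UTR sites of G35 and G45 it was present 42.3 and 43.1 times per 1000 bases, compared to 13.9 and 17.3 for all genes, but these slices had only 23 and 28 such sites. G20, with 64 such sites, had 7.14 per 1000 bases, below both HuR values, compared to 2.94 for all genes. ATTTA was present 2.62 and 2.63 times per 1000 bases in HuR, below the 3.44 and 3.79 of all genes. Between 91.3 and 97.9% of the 3'UTR sites ended in G, the base after which RNase T1 cuts, except 85.7% in G45.

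A list of 22 other genes whose products bind these proteins or are found in the same granules gave the wider setting. Of 17 whose 3'UTR could be tested, 1 had an unadjusted edgeR p under 0.05 with more HuR reads and 0 with fewer, and 0 were called after adjustment. Among all 3'UTRs 8.47% had an unadjusted edgeR p under 0.05 with more HuR reads. The median log2 ratio of the list was 0.12, below the 0.52 of all 3'UTRs. The highest ratios were those of TIA1, a stress granule protein that binds U-rich RNA (1.54 ± 0.83, adjusted p = 0.265), and NUFIP2, a partner of FMRP (1.53 ± 0.50, adjusted p = 0.107, the edgeR p before adjustment being 0.0167). The lowest were EIF4G1, the scaffold of translation initiation (-2.59 ± 1.15, adjusted p = 0.188), and ATXN2L, a paralog of ataxin-2 (-1.995 ± 1.22, adjusted p = 0.321). By the 3'UTR share, 13 of the 17 list genes with enough reads had both HuR replicates above all slices and 0 below, compared to 62.3% of all genes tested.

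NUFIP2 held 72, 51 and 79 3'UTR reads in G20, G35 and G45, 518 and 5601 in the HuR replicates and 1617 in Total. EIF4G1 held 62, 9 and 7 in the slices, 10 and 114 in HuR and 113 in Total. These are unscaled counts, and G20 held 38644636 reads at all sites, compared to 9525265 in HuR replicate 1.

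By pattern across the 6 libraries and 4 regions (24 values of log2 of TMM-normalised RPM plus 0.1), FMR1 was most like WDR26 (Pearson r = 0.966) and NFAT5 (0.962) among 14467 other genes. G3BP2 was most like INO80D (0.959) and SREK1 (0.9495), FXR1 like BRIP1 (0.939) and AP3B1 (0.937), and CAPRIN1 like QSER1 (0.930) and IPO5 (0.914). FXR2 was most like TMEM143 (0.905) and GAS8 (0.902), and G3BP1 like RBM12 (0.905) and ADAR (0.900). The 24 values share 6 libraries, and none of these genes was a member of the family.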

How the data were processed

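The authors sequenced 50 bp single reads, removed adapters and mapped to hg19 with Bowtie, and PARalyzer grouped uniquely placed reads into sites. The deposited values are whole-number counts of reads, conversion locations and conversion events per site, without normalization, in 1 table of groups (sites with any read, used here) and 1 of clusters (deeper sites) per library. Removal of PCR duplicates is not given in the sources used here.

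Read counts were summed by gene and region of GENCODE release 44 on GRCh37, by the site's middle on the gene's strand, and a site in several genes counted for each. The sequences of all 5331 member sites matched GRCh37. Regions kept by filterByExpr were fitted with all 6 libraries in edgeR 4.0.16 (TMM, quasi-likelihood, Benjamini-Hochberg adjustment, R 4.3.3), and HuR was compared with background at a threshold of 0.05. Standard errors were taken from the F statistic. DESeq2 1.42.0 was an alternative. Exact permutation tests and 95% Wilson intervals used Python 3.11.15 with scipy 1.17.1. The fit, overlap and region assignment were tested on simulated data, where the fit called 23 of 99 regions changed 8-fold. Alternatives changed the scaling, filter, weighting, site table, transcripts, overlap rule and libraries.

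The genes and lists were chosen with earlier results of these data known. Named were the 6 members, the 2 highest and 2 lowest 3'UTR ratios of the list, the 2 genes most like each member with at least 100 reads, and the intervals defined in the text, of which 1 is not reported here. The 3'UTR share rule over all genes and the leaving out of the CAPRIN1 interval, for CAPRIN1 and for all 6 genes, were added after seeing the data. Published site tables were not used here.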

Additional observations from a re-analysis of the deposited data

Results flagged for a closer look

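Reads on the strand opposite to a member, outside annotated genes of that strand, were part of no comparison. Among members with more than 3 such reads in each HuR replicate, those of FXR2, CAPRIN1 and G3BP2 were above every slice in both. FXR2 had 1.68 and 2.12 RPM in HuR replicates 1 and 2, compared to 0.285 in G20, 0 in G35 and G45 and 2.92 in Total. CAPRIN1 had 1.79 and 2.77 RPM in HuR, compared to 0.181, 1.13 and 0.133 in the slices and 0.334 in Total. G3BP2 had 2.10 and 2.90 RPM in HuR, compared to 0, 0.485 and 0.531 in the slices and 0.696 in Total. These differences were not tested.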

How the results depend on the processing

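The number of gene regions called depended on the setting. Where edgeR called 0 higher and 0 lower in HuR, DESeq2 called 1393 and 3874 (5.89% and 16.4% of 23669). Counting each site once gave 3322 and 3257 (26.5% and 25.9% of 12552). Library totals gave 9101 and 121 (38.5% and 0.511% of 23669), and no filter 3830 and 1329 (5.37% and 1.86% of 71293). Canonical transcripts and the clusters tables, like the main fit, gave 0. Leaving out 1 library gave 0 to 1458 higher, the most without HuR replicate 1, and 0 to 750 lower, the most without G20. Of the 15 coding, 3'UTR and intron regions of the members, DESeq2 called 4 higher and 1 lower, library totals 11 higher and no filter 7 higher. Counting each site once called 5 higher and 2 lower of the 12 tested. Of 157 values of these regions under the alternatives, 117 kept direction and call, 36 became called in the same direction, and 4 reversed. The reversed values were 0.64 for FMR1 and 1.14 for G3BP1 coding sequence under library totals, and -0.23 and -0.82 for the G3BP1 and G3BP2 3'UTRs with each site once. The median of all 3'UTRs with each site once was -0.62. The HuR mean 3'UTR share of all member reads, 26.8%, was 17.25% with each site once and 34.8% in the clusters tables, where the background mean, 17.5%, was 23.2% and 22.7%, so that HuR fell below background with each site once. The share of HuR reads overlapping background, 30.6%, was 12.5% with background sites of at least 5 reads and 13.3% with each site once. Background conversion events per 100 reads, 37.8, were 73.3 in the clusters tables and 54.5 without the deepest site of each member. The share of genes with HuR above all slices, 62.3%, was 54.4% at a minimum of 5 reads and 67.2% at 20 (settings chosen after seeing the data), and 64.1 to 72.4% without 1 library, and every member tested stayed above in all of these. The cause of these changes was not tested, apart from the fewer libraries or sites that a setting uses. No paired analysis was possible because the slices carry no replicate numbers. Depth limits FXR2, whose coding sequence and 3'UTR held under 30 reads in each HuR replicate, and the slices, where most member regions held under 100 reads.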

Other observations

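FXR1 had more reads on its opposite strand, outside annotated genes of that strand, than on its own strand in G35 and G45. There were 162 opposite-strand reads in G35 and 134 in G45, compared to 110 and 107 reads of FXR1 itself, and 67 compared to 134 in G20. The opposite-strand reads came from only 3 sites in G35 and 4 in G45, compared to 22 and 32 sites on the gene's own strand. In HuR the opposite strand held 45 and 461 reads, compared to 763 and 8456 of FXR1, and in Total 61 compared to 1854.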
